A study of Mus musculus with 12 samples.

Results

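Classical cadherins and the catenins that bind them are proteins of the adherens junction, and Dsg2 is a cadherin of the desmosome. Their mRNA was examined in mouse testes injected with lentivirus constructs meant to lower or raise the long non-coding RNA lncRNA5251. The 10 genes Cdh22, Cdh1, Cdh2, Cdh3, Cdh11, Ctnnb1, Ctnna1, Ctnna2, Ctnnd1 and Dsg2 were taken by their symbols from a table of 20718 genes, and all 10 were found. The set was built around Cdh22, which was selected on these data because it had the smallest p among the genes that were lower in F0_5251OV than in F0_5NC. That contrast is therefore given for Cdh22 as a description without a test.

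There were 4 groups of 3 RNA-seq libraries, all from testes of males of the injected generation (labels F0_), whose strain the labels write as IRC. The virus was injected into the testis at 4 weeks of age and the males were mated from 9 weeks of age, before the testes were collected. F0_5251KD received a mixture of 3 short hairpin RNAs (shRNAs) against lncRNA5251 in the LV3 backbone, and F0_3NC received the control hairpin in that backbone. F0_5251OV received full-length lncRNA5251 in the LV5 backbone, and F0_5NC received the LV5 vector. All 4 groups thus carried a lentivirus in the testis, with no uninjected group among them, and whole testis was measured, so infected and uninfected cells are mixed. Nothing in the labels ties each library to an animal of its own, so the p-values given here measure a spread between libraries that may be technical. Total estimated counts lay between 15431383 and 16355720 per library. The hairpin targets lie in the transcript of Purb, whose log2 fold change was -0.11 with SE 0.0927 against F0_3NC and 0.04 with SE 0.0929 against F0_5NC. This count gives no check of either treatment, so the groups are called knockdown and overexpression by their labels only.

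Classical cadherins are transmembrane proteins that bind a cadherin of the neighbouring cell in the presence of calcium. Their cytoplasmic tail binds β-catenin and p120-catenin, and β-catenin binds α-catenin, which links the complex to actin. In the seminiferous epithelium such junctions hold Sertoli cells to each other and to germ cells and are taken apart and rebuilt as germ cells move towards the lumen, while β-catenin outside the junction also acts as the transcriptional partner of TCF/LEF factors in Wnt signalling.

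The hairpin sequences are shown because Cdh22 was also low in the group that received them, and a near match of a hairpin to a member would bear on its count. Each is the target strand, 5′ to 3′, and the capitals mark the bases that would pair with positions 2 to 8 (the seed) of a guide strand that is its full complement.
Sh3NC: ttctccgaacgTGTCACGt
shlncRNA5251 KD #1: gctgggacttaatGTCCTTCt
ShlncRNA5251 KD #2: gcatgggcaattcAAACAAAt
ShlncRNA5251 KD #3: gcttattatgcatCGTAAACc
In the sense orientation of the 79 annotated transcripts of the 10 genes (GENCODE, GRCm38), the closest match of the control hairpin, which is 19 bases long, had 6 mismatches. The closest match of each knockdown hairpin, 21 bases long, had 7 mismatches. In the 2 annotated transcripts of Cdh22 the fewest mismatches were 6 for the control hairpin and 7, 8 and 9 for knockdown hairpins 1, 2 and 3. The capital letters of none of the 4 hairpins occurred in either Cdh22 transcript. In at least 1 transcript of a gene, the letters of the control hairpin occurred in 1 of the 10 genes (8.49% of 21877 protein-coding genes), those of knockdown hairpin 1 in 3 (28.3%), of hairpin 2 in 8 (46.4%) and of hairpin 3 in 0 (3.14%). The 10 genes had 7.9 annotated transcripts each on average, against 4.65 for all protein-coding genes, which gives them more chances of a match.

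Cdh22 encodes a type II classical cadherin known mainly from brain. Its gene (gene ID 104010) lies on chromosome 2 from 165111501 to 165234924 (GRCm38.p6), on the minus strand, and an antisense gene, Gm14397, is annotated within it. No strand-marking step is named for these libraries, so reads of Cdh22 and Gm14397 cannot be told apart. In F0_5NC, Cdh22 had 159, 161 and 89 estimated counts in replicates 1, 2 and 3, and in F0_5251OV it had 13, 11 and 19. As CPM, which relate each count to the TMM-scaled total of its library, these were 9.53, 10.6 and 5.69 in F0_5NC and 0.815, 0.718 and 1.23 in F0_5251OV. Every F0_5NC library was therefore above every F0_5251OV library. The means were 8.62 ± 2.6 and 0.92 ± 0.271 CPM (SD, n = 3), which is 9.37-fold lower in F0_5251OV, with a log2 fold change of -3.22 (SE 0.467) in edgeR.

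The comparison of F0_5251KD with F0_3NC was not used to select Cdh22 and shares no library with the contrast that was. Its SE and p are not fully separate from that selection, because 1 model of all 12 libraries gave the spread. Cdh22 had 23, 89 and 91 estimated counts in replicates 1, 2 and 3 of F0_3NC, and 15, 11 and 24 in F0_5251KD. In CPM these were 1.48, 5.41 and 6.01 in F0_3NC and 0.953, 0.713 and 1.53 in F0_5251KD. Replicates 2 and 3 of F0_3NC were above all knockdown libraries, but replicate 1 of F0_3NC was at their level and below replicate 3 of F0_5251KD, so the groups overlapped. The means were 4.3 ± 2.46 and 1.07 ± 0.421 CPM (SD, n = 3), 4.04-fold lower in F0_5251KD. The log2 fold change was -2.00 (SE 0.469, 95% interval -3.01 to -0.99), with an unadjusted p of 0.000851 and a Benjamini-Hochberg adjusted p of 0.603 over 16296 genes by edgeR's quasi-likelihood test, which does not pass the threshold of 0.05. DESeq2, which handles the spread of a single gene in another way, gave an adjusted p of 0.022. Without replicate 1 of F0_3NC, edgeR gave a log2 fold change of -2.41 and an adjusted p of 0.0722, and the adjusted p over all alternatives lay between 0.022 and 1.0.

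Cdh22 was thus at 0.713 to 1.53 CPM in the 6 libraries that received a lncRNA5251 construct. It was at 5.41 to 10.6 CPM in 5 of the 6 control libraries. The remaining control library was replicate 1 of F0_3NC. This pattern is a description and no test of a shared effect of the constructs. The gap between F0_5251OV and F0_5NC is the one on which Cdh22 was selected. F0_5251KD and F0_3NC overlapped, and their difference did not pass the edgeR threshold. The mean of F0_3NC was 0.499 of that of F0_5NC (log2 fold change -1.0, SE 0.393). This value is given without a test, because Cdh22 was selected for being high in F0_5NC relative to F0_5251OV, and that selection favours high F0_5NC values.

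**Figure D1:**
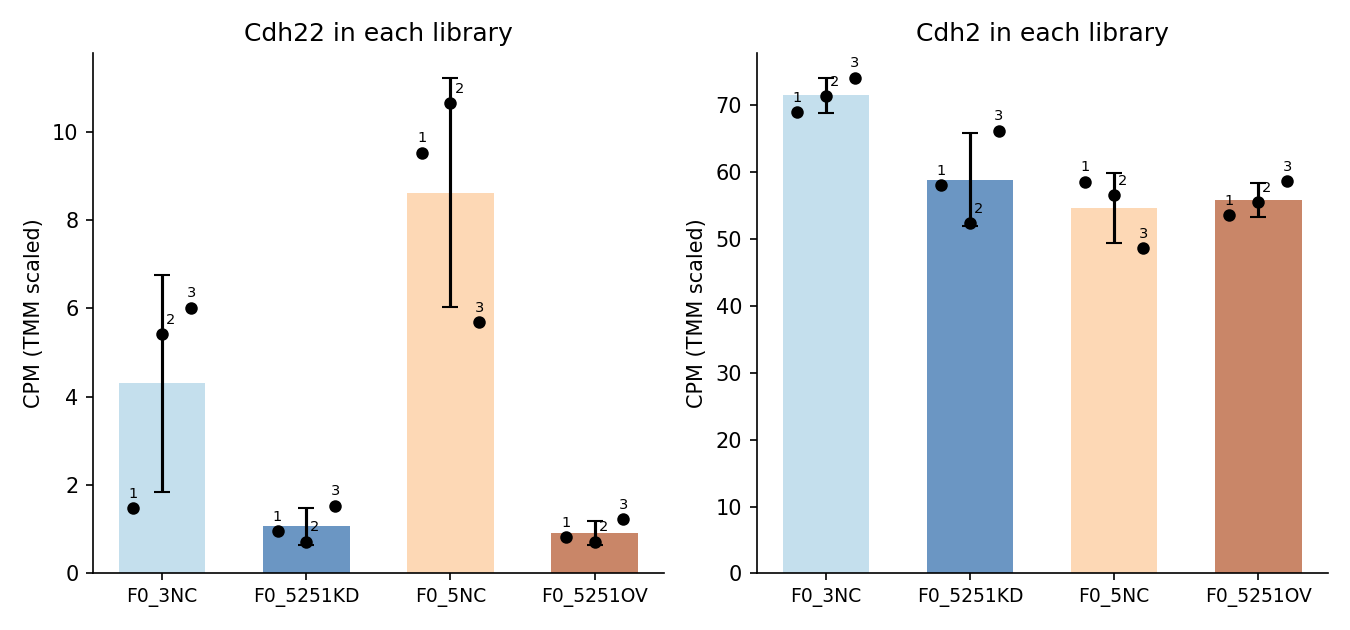
CPM after TMM scaling of Cdh22 (left) and Cdh2 (right) in the 4 groups. Points are libraries with their replicate number, bars are means and error bars are SD (n = 3). Cdh22 is at 0.713 to 1.53 CPM in all libraries of F0_5251KD and F0_5251OV and at 1.48 CPM in replicate 1 of F0_3NC. Cdh2 is highest in the 3 libraries of F0_3NC. F0_5NC and F0_5251OV hold the values on which Cdh22 was selected.

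The spread of Cdh22 between libraries of one group was large. Its biological coefficient of variation in edgeR was 0.352, against 0.204 for the trend at its level, and was above that of 96.9% of the tested genes. Among the other 8 members that passed the filter on low counts, this coefficient was between 0.0682 (Ctnnb1) and 0.192 (Cdh3). Within a group, the highest CPM of Cdh22 was at most 4.06 times the lowest (in F0_3NC), while for the 8 others the largest such ratio was between 1.12 (Ctnnd1) and 1.7 (Cdh3).

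The deposited counts and FPKM values (estimated counts scaled by transcript length and library total) also differed in what they say about the length of the Cdh22 transcript. The length implied by each pair of count and FPKM was 3359 bases in replicate 2 of F0_3NC, and between 2366 and 2902 bases in the other 11 libraries. The annotation holds a protein-coding Cdh22 transcript of 12 exons and 3702 bases, and one of 11 exons and 2521 bases that is annotated as a target of nonsense-mediated decay. For Cdh2, in contrast, the implied length was between 4695 and 4728 bases in all libraries, and for Ctnnb1 it was between 3318 and 3410 bases. The libraries of F0_5251KD and F0_5251OV had at most 24 estimated counts of Cdh22, so their implied lengths rest on few reads and on FPKM values rounded to 2 decimals. With the longer length, the FPKM of replicate 2 of F0_3NC (1.62) was below that of replicate 3 (2.28) by more than the CPM values of 5.41 and 6.01 differ.

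**Figure D2:**
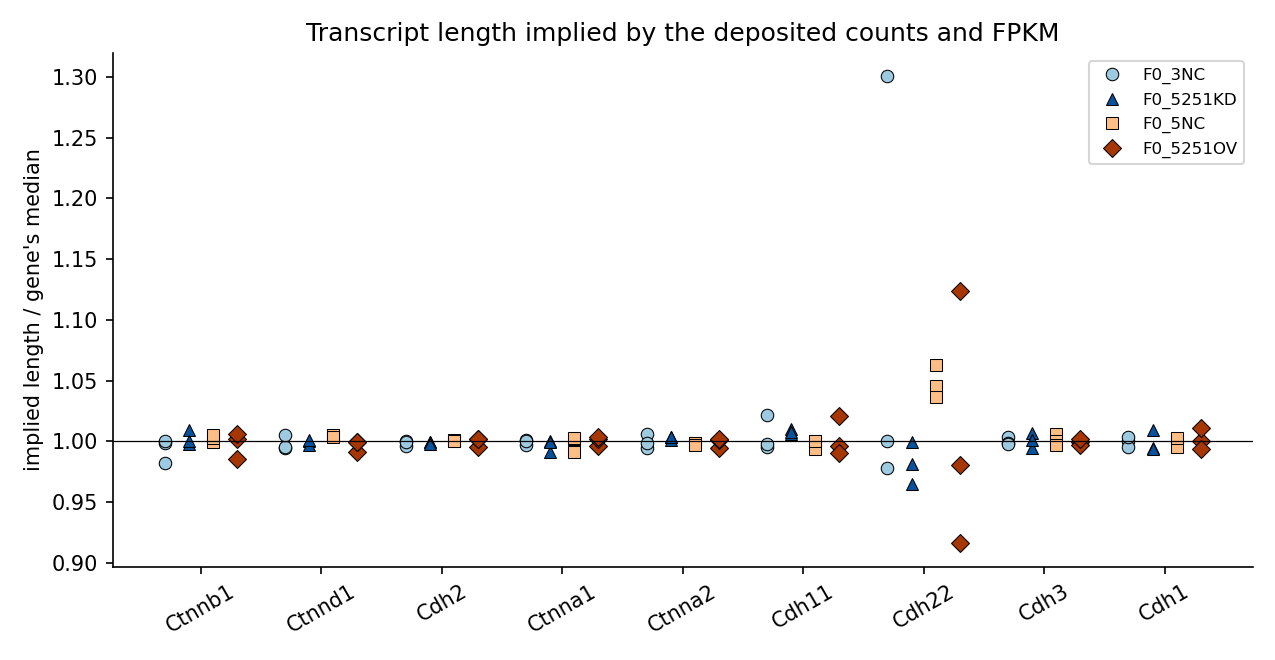
Transcript length implied by the deposited count and FPKM of each library, divided by the median over the 12 libraries for that gene, for the 9 members that passed the filter. Symbols mark the groups. Cdh22 alone among these genes is spread widely, with replicate 2 of F0_3NC at the top (3359 bases against a median of 2583), while the 12 points of each other gene lie close to 1.

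The tested genes on either side of Cdh22 showed no difference past the threshold. They were looked up after the values of Cdh22 had been seen. Of the 3 listed genes on each side, 4 were tested, namely Slc12a5, Ncoa5, Slc35c2 and Elmo2. Their log2 fold changes were between 0.01 and 0.14 in F0_5251OV vs F0_5NC, with a smallest adjusted p of 0.799 by edgeR, and between 0.0 and 0.32 in F0_5251KD vs F0_3NC, with a smallest adjusted p of 0.897.

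The genes whose log2 CPM followed Cdh22 most closely over the 12 libraries, among 15167 genes that averaged 1 CPM or more, were Gm1966 (Pearson r 0.86), Wdr45 (0.84), Zcchc12 (0.84), Zfp386 (0.84) and H2-Ab1 (0.83). These are descriptions, since the points share their groups and the genes were the highest of many. H2-Ab1, a chain of the class II major histocompatibility complex, was between 15.5 and 26.8 CPM in F0_3NC and between 7.98 and 14.9 in F0_5251KD. It was between 15.9 and 28.7 CPM in F0_5NC and between 8.96 and 13.9 in F0_5251OV, and neither treated group overlapped its control. Such a separation follows in part from the choice of genes for their likeness to Cdh22, and 11.8% and 13.9% of all genes did not overlap in these comparisons. Gm1966 averaged 1.81 ± 0.5 CPM in F0_3NC and 0.535 ± 0.1 CPM in F0_5251KD, and at 2.21 ± 0.94 and 0.749 ± 0.48 CPM in F0_5NC and F0_5251OV (SD, n = 3). After the group means were taken off, r with Cdh22 was 0.88 for Zcchc12, 0.58 for Wdr45, 0.49 for Gm1966, 0.47 for H2-Ab1 and 0.27 for Zfp386. The other members of the set were less like Cdh22, with r between -0.27 (Cdh11) and 0.51 (Ctnnb1).

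Markers of testis cell types were read beside Cdh22, since a change in the cells that hold an mRNA and a change of mRNA per cell cannot be told apart in whole tissue. In F0_5251OV vs F0_5NC all 13 of 13 Sertoli cell markers had a negative log2 fold change (median -0.21). Their summed level was 1848, 1289 and 1263 CPM in replicates 1, 2 and 3 of F0_5NC, and 1067 to 1229 CPM in F0_5251OV. Most of the gap thus lay in replicate 1 of F0_5NC. That library also had the highest sum of its group for Leydig cells (3094 CPM), macrophages (117.6), endothelium (51.1) and spermatogonia (180.9). It had the lowest for peritubular cells (360.6), rete testis (73.5), epididymis (141.4), round spermatids (1673) and elongated spermatids (17650). Its spermatocyte sum (978.4) lay between those of the other libraries of the group. The 8 of 8 endothelial markers also had negative values (median -0.29), with sums of 46.4 to 51.1 and 38.4 to 45.9 CPM. In F0_5251KD vs F0_3NC, where Cdh22 was also lower, 9 of 13 Sertoli markers and 8 of 8 endothelial markers had positive values (medians 0.07 and 0.21), and the endothelial sum was 36.8 to 41.5 CPM in F0_3NC and 43.5 to 48.6 CPM in F0_5251KD. The 13 spermatogonial markers summed to 147.3 to 180.9 CPM in F0_5NC, 151.7 to 169.6 in F0_5251OV, 151.7 to 163.6 in F0_3NC and 156.7 to 179.4 in F0_5251KD, and these ranges overlap. Other somatic lists also had mostly negative values in F0_5251OV vs F0_5NC. These were 8 of 8 Leydig cell markers (median -0.22), 7 of 8 peritubular myoid and smooth muscle markers (-0.35), 7 of 8 macrophage markers (-0.38) and 8 of 11 tested rete testis and efferent duct markers (-0.38). Their medians in F0_5251KD vs F0_3NC were 0.23, 0.17, 0.08 and 0.2. Their summed levels overlapped between F0_5251OV and F0_5NC, at 1486 to 2156 and 1829 to 3094 CPM for Leydig cells, 352.7 to 401.7 and 360.6 to 406.1 for peritubular cells, 84.5 to 88.4 and 85.4 to 117.6 for macrophages, and 71.0 to 86.9 and 73.5 to 94.6 for rete testis. In F0_3NC vs F0_5NC, 13 of 13 Sertoli and 8 of 8 endothelial markers were again negative (medians -0.19 and -0.2). The 10 of 12 epididymal markers in the table summed to 141.4 to 305.8 CPM in F0_5NC and 183.1 to 261.7 in F0_5251OV. The sums were 150.5 to 202.3 in F0_3NC and 170.1 to 185.2 in F0_5251KD, with Defb15 at 0 in all libraries of both. Cst8 alone was at 125 to 200 CPM in F0_5NC and 145 to 192 in F0_3NC, so it made up much of these sums. Crisp1 was at 9.77 to 93.8 CPM in F0_5NC and 0.194 to 63.6 in F0_5251OV. It was at 0.322 to 5.95 CPM in F0_3NC and 0.0639 to 0.127 in F0_5251KD. Of 5 tested epididymal markers, 4 were lower and 1 higher in F0_3NC vs F0_5NC (median -3.01). The medians were -0.39 in F0_5251OV vs F0_5NC and -0.78 in F0_5251KD vs F0_3NC. The medians of the germ cell lists other than spermatogonia were 0.12 for spermatocytes, 0.11 for round and 0.04 for elongated spermatids in F0_5251OV vs F0_5NC, and -0.19, 0.0 and 0.03 in F0_5251KD vs F0_3NC. None of these marker genes passed the edgeR threshold, DESeq2 called Myh11 (peritubular) in F0_5251OV vs F0_5NC and Cldn5 (endothelial) and Adam7 (epididymal) in F0_3NC vs F0_5NC, and no marker in the table was at 0 in all libraries. Their part in the Cdh22 result was not tested.

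Per length, the members spanned a wide range of levels. β-catenin mRNA (Ctnnb1, chromosome 9, 120933400 to 120960507) was the most abundant, at 33.1 to 43.9 FPKM over the 12 libraries, and no library of another member reached it. Ctnnd1, which encodes p120-catenin, followed at 13.93 to 17.96 FPKM. Cdh2 (N-cadherin), at 10.3 to 15.4 FPKM, and Ctnna1 (αE-catenin), at 9.4 to 15.9 FPKM, had ranges that overlapped with that of Ctnnd1 and with each other. Within a library, Ctnnd1 was above Ctnna1 in 12 of 12 and above Cdh2 in 11 of 12, and Cdh2 was above Ctnna1 in 10 of 12. Ctnna2 (αN-catenin) was at 3.71 to 4.89 FPKM and Cdh11, the mesenchymal OB-cadherin, at 1.71 to 2.6 FPKM. Cdh3 (P-cadherin), at 0.47 to 0.97 FPKM, and Cdh1 (E-cadherin), at 0.39 to 0.6 FPKM, were low and overlapped, with Cdh3 the higher in 10 of 12 libraries. Dsg2, a desmosomal cadherin, was at 0.02 to 0.16 FPKM, below every other member.

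The place of Cdh22 in this order changed with the group. It was at 3.24 ± 0.966 FPKM in F0_5NC and above Cdh11 in 2 of 3 libraries there. In F0_3NC it was at 1.49 ± 0.857 FPKM, above Cdh11 in 1 of 3 libraries and above Cdh3 in 2 of 3. In F0_5251KD it was at 0.42 ± 0.157 FPKM and in F0_5251OV at 0.35 ± 0.104 FPKM (SD, n = 3 throughout), below Cdh3 in all 6 libraries and above Cdh1 in 1 library of each group.

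**Figure D3:**
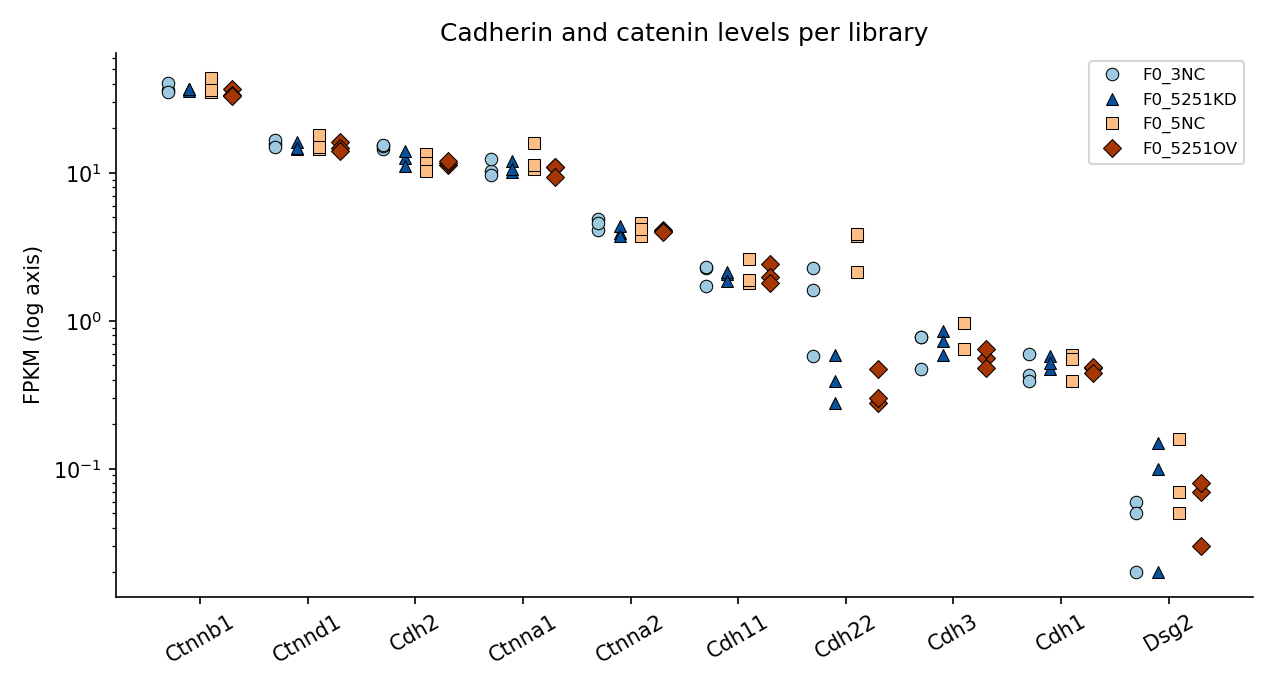
FPKM of the 10 members in each of the 12 libraries on a log axis, with the genes ordered by their mean and symbols marking the 4 groups. Cdh22 is spread from 0.28 to 3.86 FPKM, crossing the ranges of Cdh11, Cdh3 and Cdh1, while the 4 groups of Ctnnb1 and Ctnnd1 lie on top of each other.

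Cdh2 made up most of the mRNA of the 5 classical cadherins in the set. On the FPKM scale it was 74.9% to 78.1% of their sum in F0_3NC, 75.4% to 79.0% in F0_5251KD and 75.3% to 78.2% in F0_5251OV, but 61.7% to 67.0% in F0_5NC. Cdh22 was 12.8% to 20.3% of the sum in F0_5NC and 3.14% to 11.1% in F0_3NC. It was 1.91% to 3.34% in F0_5251KD and 1.85% to 3.06% in F0_5251OV. The sum itself was 16.6 to 19.9 FPKM in F0_5NC and 14.9 to 15.4 FPKM in F0_5251OV, and 18.5 to 20.6 FPKM in F0_3NC and 14.7 to 17.7 FPKM in F0_5251KD. The sum contains Cdh22 and was not tested. Without Cdh22, the other 4 summed to 14.5 to 16.2 FPKM in F0_5NC and 14.6 to 14.9 FPKM in F0_5251OV, which overlap, and to 17.9 to 18.6 FPKM in F0_3NC and 14.4 to 17.1 FPKM in F0_5251KD. Of these 4, Cdh2 was 71.5% to 82.5% in F0_5NC and 76.7% to 80.6% in F0_5251OV, so with Cdh22, the gene selected on that contrast, left out, the share of Cdh2 overlapped between these groups.

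**Figure D4:**
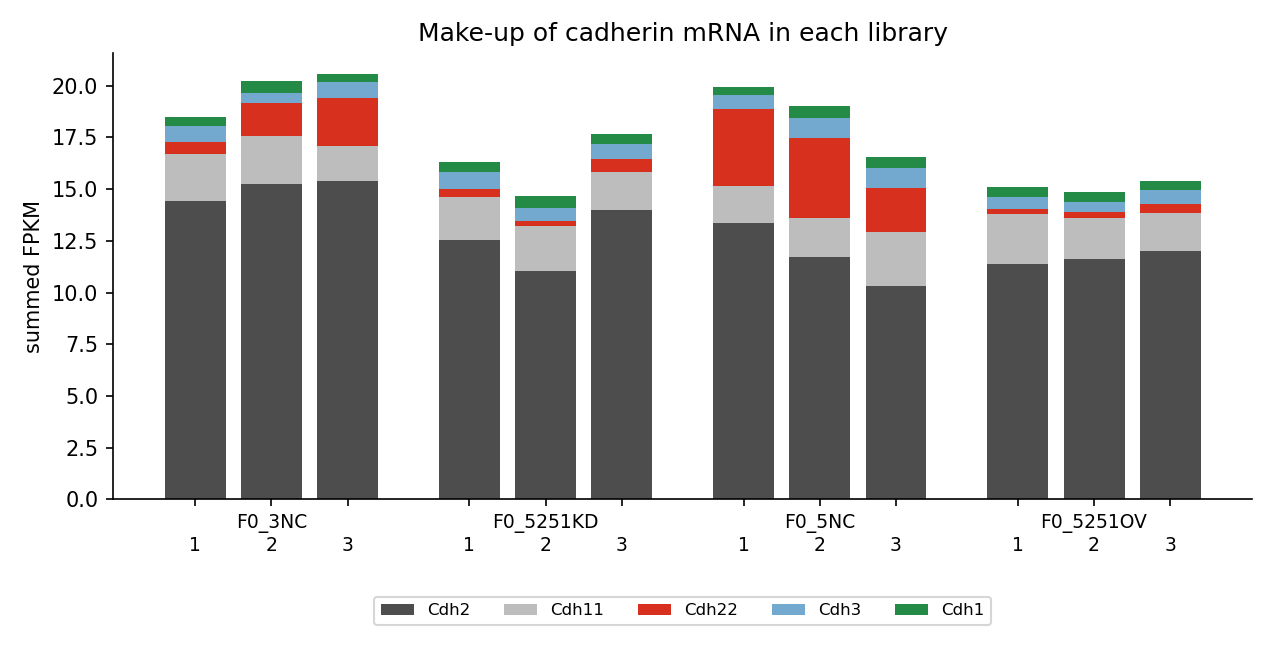
Summed FPKM of the 5 classical cadherins in each library, stacked by gene, with replicate numbers under the bars. Cdh2 (dark grey) is the largest share in every library. The Cdh22 share (red) is 12.8% to 20.3% in F0_5NC and at most 3.34% in the 6 libraries with a lncRNA5251 construct. F0_5NC and F0_5251OV hold the values on which Cdh22 was selected.

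Cdh2 (chromosome 18, 16588877 to 16809246) mediates adhesion between Sertoli cells and between Sertoli and germ cells. It was at 69.0, 71.4 and 74.1 CPM in replicates 1, 2 and 3 of F0_3NC, and at 58.0, 52.4 and 66.2 CPM in F0_5251KD. It was at 58.6, 56.6 and 48.7 CPM in F0_5NC and at 53.5, 55.5 and 58.6 CPM in F0_5251OV. The 3 libraries of F0_3NC were above all other libraries, and the other 3 groups overlapped. In F0_3NC vs F0_5NC the log2 fold change was 0.39 (SE 0.0961, 95% interval 0.18 to 0.60, adjusted p 0.164 by edgeR and 0.0439 by DESeq2, n = 3 libraries in each), so the call depended on the tool, and the adjusted p over all alternatives lay between 0.0439 and 0.367. In F0_5251KD vs F0_3NC it was -0.28 (SE 0.0959, 95% interval -0.49 to -0.07, adjusted p 0.897 by edgeR, 0.684 to 1.0 over the alternatives), with F0_3NC shared by both comparisons. In F0_5251OV vs F0_5NC it was 0.03 (SE 0.0965, 95% interval -0.17 to 0.24, adjusted p 0.932). The difference of the effects of F0_5251KD and F0_5251OV on Cdh2 was -0.31 (SE 0.136, 95% interval -0.61 to -0.02, adjusted p 0.425), which does not pass.

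The 3 other classical cadherins were low and showed no difference past the threshold. Cdh3 (chromosome 8, 106510852 to 106556911), which is next to Cdh1 on the chromosome, was at 2.34, 3.83 and 3.77 CPM in F0_5NC and at 2.19, 1.89 and 2.59 CPM in F0_5251OV. Replicates 2 and 3 of F0_5NC were the highest, and replicate 1 lay within the range of F0_5251OV. The log2 fold change was -0.57 (SE 0.264, adjusted p 0.569 by edgeR, 0.566 to 0.987 over the alternatives). Cdh3 was at 3.09, 1.82 and 3.11 CPM in F0_3NC and at 3.24, 2.33 and 2.87 CPM in F0_5251KD, where the log2 fold change was 0.08 (SE 0.263). Cdh1 (chromosome 8, 106603350 to 106670247), which is typical of epithelia, was between 1.56 and 2.58 CPM in all libraries, with 26 to 42 estimated counts. Its 95% interval ran from -0.39 to 0.65 for knockdown against F0_3NC and from -0.6 to 0.45 for overexpression against F0_5NC, so that a change of the size of that of Cdh2 would not be detectable. Cdh11 (chromosome 8, 102632095 to 102785493) was between 8.03 and 12.5 CPM, and its log2 fold changes were -0.05 (SE 0.168) and 0.03 (SE 0.168) in these comparisons.

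Dsg2 (chromosome 18, 20558074 to 20604526) had between 2 and 14 estimated counts per library and did not pass the filter, so it was not tested. It was at 0.253 ± 0.105 CPM in F0_3NC, at 0.514 ± 0.361 CPM in F0_5251KD, at 0.516 ± 0.361 CPM in F0_5NC and at 0.342 ± 0.135 CPM in F0_5251OV (SD, n = 3), and these groups overlapped.

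Ctnnb1 and Ctnnd1 were the steadiest members, with the highest CPM over 12 libraries 1.19 and 1.17 times the lowest, against 1.28 for Ctnna2 and 1.52 for Ctnna1. Ctnnb1 was at 124.3, 133.4 and 121.2 CPM in replicates 1, 2 and 3 of F0_3NC, and at 119.4, 125.1 and 125.1 CPM in those of F0_5251KD. It was at 137.5, 121.7 and 122.8 CPM in F0_5NC, against 123.7, 115.4 and 115.9 CPM in F0_5251OV. Replicate 1 of F0_5NC was the highest library, and all groups overlapped. The log2 fold change of Ctnnb1 was -0.04 (95% interval -0.19 to 0.12, adjusted p 0.94 by edgeR) in F0_5251KD vs F0_3NC. It was -0.11 in F0_5251OV vs F0_5NC (95% interval -0.26 to 0.05, adjusted p 0.656). A fall of Ctnnb1 beyond -0.19 and -0.26, the lower bounds, lies outside these intervals.

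Ctnnd1 (chromosome 2, 84587096 to 84658977), whose protein keeps cadherins at the cell surface, was between 72.4 and 84.4 CPM in all libraries, with 95% intervals of -0.23 to 0.09 and -0.2 to 0.12. Ctnna1 (chromosome 18, 35118902 to 35254776) was at 52.3, 38.2 and 39.6 CPM in F0_5NC and at 38.7, 39.5 and 34.4 CPM in F0_5251OV, with replicate 1 of F0_5NC far above the others. Its log2 fold change was -0.21 (SE 0.128, adjusted p 0.631 by edgeR), and without that library it was -0.05. In F0_3NC vs F0_5251KD it was at 37.1, 43.9 and 34.9 CPM against 41.5, 35.5 and 37.5 CPM, and these overlapped. Ctnna2 (chromosome 6, 76881637 to 77979815), the α-catenin of neurons, was at 16.2, 18.9 and 18.2 CPM in F0_3NC and at 15.0, 17.1 and 14.8 CPM in F0_5251KD (log2 fold change -0.19, SE 0.101, adjusted p 0.897). In F0_5251OV its 3 libraries were at 16.03 to 16.05 CPM, within the range of F0_5NC (14.7 to 16.5).

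**Figure D5:**
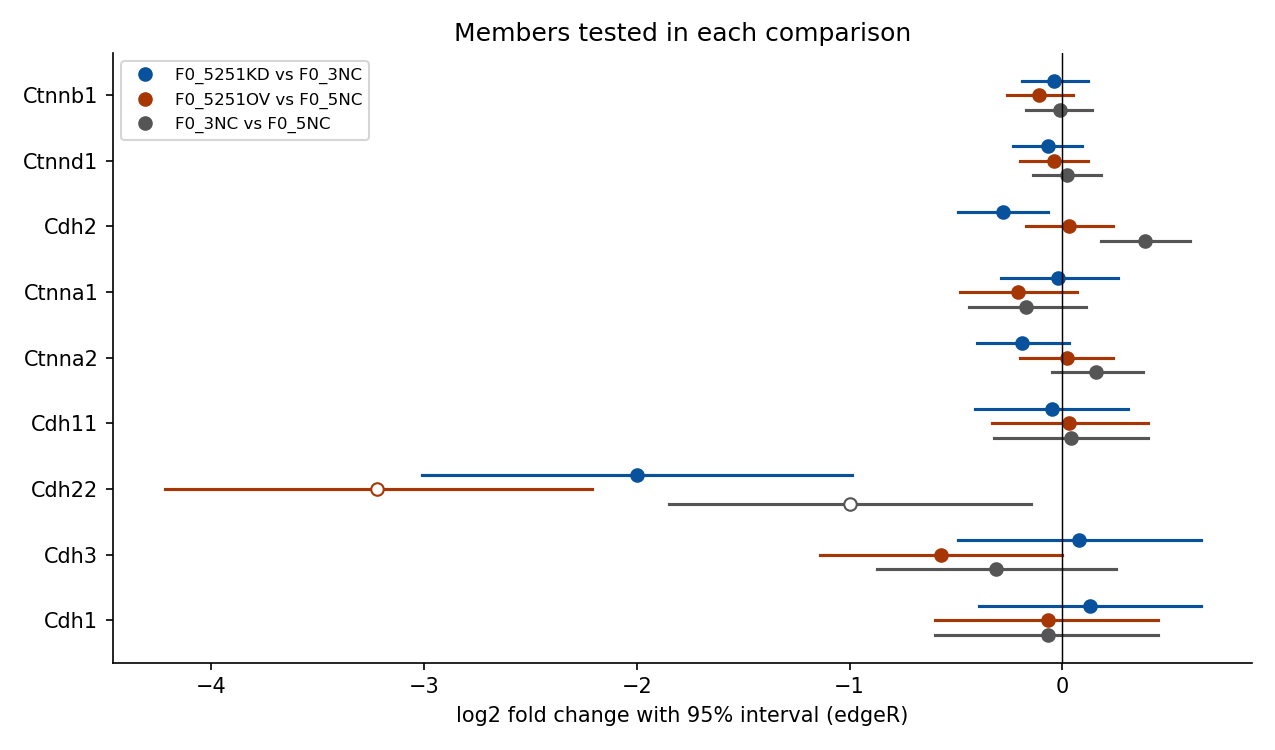
Log2 fold change with its 95% interval from edgeR for the 9 members that passed the filter, in F0_5251KD vs F0_3NC (blue), F0_5251OV vs F0_5NC (brown) and F0_3NC vs F0_5NC (grey), ordered by mean FPKM. Open symbols are the contrasts that hold the values on which Cdh22 was selected. The intervals of the other 8 genes lie between -1.14 and 0.65. That of Cdh22 in F0_5251KD vs F0_3NC runs from -3.01 to -0.99. Its intervals with open symbols are descriptions, since the selection makes them unfit as tests.

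Counted over the set, edgeR called 0 of 9 tested members in F0_5251KD vs F0_3NC, where 0.0245% of all genes were called. Of these 9, 2 had an unadjusted p under 0.05 (Cdh22 and Cdh2, against 4.74% of all genes), and DESeq2 called 1 (Cdh22, against 0.122%). In F0_5251OV vs F0_5NC edgeR called 0 of the 8 members other than Cdh22 against a background of 0.0%, with 1 unadjusted p under 0.05 (Cdh3, against 8.77%), and DESeq2 called 0 (against 0.168%). In F0_3NC vs F0_5NC, again without Cdh22, edgeR called 0 of 8 against 0.331%, with 1 unadjusted p under 0.05 (Cdh2, against 11.9%), and DESeq2 called 1 (Cdh2, against 0.727%). For the difference of the effects of F0_5251KD and F0_5251OV edgeR called 0 of 8 against 0.0%, with 1 unadjusted p under 0.05 (Cdh2, against 11.3%), and DESeq2 called 0 (against 0.223%). The CPM of the groups did not overlap for 1 of the 9 members in each of the first 3 comparisons. This was Cdh2 in F0_5251KD vs F0_3NC (11.8% of all genes did not overlap there) and in F0_3NC vs F0_5NC (17.0%), and Cdh22, by its selection, in F0_5251OV vs F0_5NC (13.9%). The other 8 members all overlapped in that last comparison.

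The wider cadherin and catenin families were read from 9 lists with 152 entries, of which 127 were tested. No gene of the lists was called by edgeR in any of the 4 comparisons, while 8, 12, 10 and 11 had an unadjusted p under 0.05 in F0_5251KD vs F0_3NC, F0_5251OV vs F0_5NC, F0_3NC vs F0_5NC and the difference of effects, beside the shares of 4.74%, 8.77%, 11.9% and 11.3% of all genes. Cdh22 is among the counted genes in the first 3, and the 2 that use F0_5NC hold the values it was selected on. DESeq2 called 1 gene in each of the first 3, namely Cdh22, Ctnna3 and Cdh2, leaving out Cdh22 where it was selected, beside 0.122%, 0.168% and 0.727% of all genes. The highest and lowest values named for a list are those among its genes that averaged at least 1 CPM.

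Of 13 type II cadherins 8 were tested, and their median log2 fold change was -0.09 in F0_5251KD vs F0_3NC and 0.10 in F0_5251OV vs F0_5NC, against medians of all genes of -0.004 and -0.002. Cdh22 was the lowest of them in F0_5251KD vs F0_3NC, and by its selection in F0_5251OV vs F0_5NC. The highest were Cdh24 (0.51, adjusted p 0.897) and Cdh18 (0.29, adjusted p 0.756). Cdh5, the cadherin of endothelium and one of the 8, was at 1.55 ± 0.297 FPKM in F0_5NC and 1.01 ± 0.162 FPKM in F0_5251OV (SD, n = 3), giving a log2 fold change of -0.55 with SE 0.178 and an adjusted p of 0.536 by edgeR, and it is named after its value was seen because endothelial markers were read above. Of 5 type I cadherins 4 were tested, with medians of -0.10 and -0.25. Of 32 cadherins without a classical catenin-binding tail 25 were tested, 17 with a positive and 8 with a negative value in F0_5251KD vs F0_3NC (median 0.15) and 7 and 18 in F0_5251OV vs F0_5NC (median -0.18). Among those that averaged at least 1 CPM, the highest and lowest values were 0.71 (Cdhr5) and -0.43 (Dchs1) in the first, and 0.51 (Cdh26) and -0.76 (Dchs1) in the second.

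All 13 catenins were tested, with medians of -0.04 and -0.11. Ctnna3, the αT-catenin, was the highest in F0_5251OV vs F0_5NC, at 27.6 ± 1.55 FPKM in F0_5251OV and 17.9 ± 3.07 FPKM in F0_5NC (SD, n = 3), and its log2 fold change was 0.67, with SE 0.156 and adjusted p 0.404 by edgeR. This α-catenin was thus above Ctnna1 and Ctnna2 per length in every group, at 21.7 ± 5.92 FPKM in F0_3NC and 22.1 ± 0.246 FPKM in F0_5251KD. Ctnnal1, an α-catenin-like protein, was the lowest there (-0.47, adjusted p 0.536). In F0_5251KD vs F0_3NC the catenins ran from 0.30 (Pkp1) to -0.21 (Pkp3), both plakophilins of the desmosome. Of 10 desmosomal cadherins and desmoplakin 4 were tested, with medians of -0.05 and 0.22. Dsg1a was at 14.1 to 16.1 FPKM in the group means, in contrast to Dsg2, and its log2 fold change in F0_5251KD vs F0_3NC was -0.15 (adjusted p 0.897), though reads of Dsg1a, Dsg1b and Dsg1c are uncertain because these genes are near copies of each other.

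All 16 genes of the nectin and afadin junction were tested, with medians of -0.01 and -0.05, and ran from Nectin4 (0.47) to Nectin3 (-0.18) in F0_5251KD vs F0_3NC and from Lmo7 (0.54) to Nectin2 (-0.26) in F0_5251OV vs F0_5NC. All 29 regulators of catenins were tested, with medians of -0.02 and -0.01. Of 20 entries for TCF/LEF factors and genes that respond to β-catenin, 15 were tested. Of these, 12 were positive and 3 negative in F0_5251KD vs F0_3NC (median 0.13), and 5 and 10 in F0_5251OV vs F0_5NC (median -0.06). Axin2, a feedback inhibitor of Wnt signalling, was the lowest of these in F0_5251OV vs F0_5NC (-0.48, adjusted p 0.585) and in F0_3NC vs F0_5NC (-0.64, adjusted p 0.375). Of 14 transcription and splicing factors known to act on cadherin genes 13 were tested, with medians of 0.05 and -0.04. They ran from Snai3 (0.57, adjusted p 0.897) to Ovol1 (-0.33) in F0_5251KD vs F0_3NC, and from Grhl2 (0.42) to Esrp2 (-0.54, adjusted p 0.556) in F0_5251OV vs F0_5NC.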

How the data were processed

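Testis RNA of 4 groups of 3 libraries was enriched with oligo(dT), copied with random hexamers, and sequenced, and the authors mapped the reads to reference genes with SOAPaligner. The labels name mm10 as the build, and what tool counted the reads is not stated in the sources read. Per gene and library the authors deposited estimated counts, of which 12.0% were not whole (tolerance 1e-06), and FPKM values. A further 18 columns of per-sample values match no sample of the series and were not used, nor were 14 columns of the authors' means. The members and gene lists were chosen with earlier results of these data known. No pair of libraries of a group agreed within sampling noise (chi-square per gene 3.73 to 20.2).

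Counts were rounded, filtered with filterByExpr and scaled by TMM, and 1 model of all 12 libraries was fitted with edgeR 4.0.16 (R 4.3.3) and tested by its two-sided quasi-likelihood test. P-values were adjusted by Benjamini-Hochberg over 16296 genes (threshold 0.05). SEs are the log2 fold change over the square root of F. Intervals use moderated degrees of freedom. Log2 CPM used a prior count of 2. Alternatives were DESeq2 1.42.0, upper-quartile scaling, other filters, limma 3.58.1 on log2(FPKM + 1) and log2(FPKM + 0.1), only the groups compared, the replicate number as a block, and leaving out each library. Totals differed by a ratio of 1.06 at most. The fits were tested on simulated data.

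Named were all 10 members, the list genes called or else the highest and lowest log2 fold change in a list (mean of at least 1 CPM), the 5 genes most like Cdh22, and Purb. The implied length is the count times a constant over the FPKM and the library total. Positions are those of RefSeq (GRCm38.p6).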

Additional observations from a re-analysis of the deposited data

How the results depend on the processing

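The counts of members called leave out Cdh22 in the comparisons that hold the values it was selected on. With DESeq2 the number of members called was 1 in F0_5251KD vs F0_3NC (Cdh22, log2 fold change -2.01) and 1 in F0_3NC vs F0_5NC (Cdh2, 0.38), against 0 with edgeR. In the family lists, with Cdh22 left out where it was selected, DESeq2 called 1 gene in each of the 3 comparisons between groups, against 0 with edgeR. The cause was not tested. On the log2(FPKM + 1) scale the log2 fold change of Cdh22 in F0_5251OV vs F0_5NC was -1.63 instead of -3.22, since adding 1 shrinks differences between values near or under 1. Leaving out each library in turn, it lay between -3.48 and -3.04. Leaving out libraries called 0 members in each comparison, with Cdh22 again left out where it was selected. Of 117 other values of 8 results on single members, 115 kept their direction and side of the threshold, 2 passed it (both with DESeq2) and 0 reversed. The replicate numbers showed no pairing of the libraries. Libraries with the same number had correlations of their deviations from the group means between -0.14 and 0.06, not all above 0.1 in any comparison. With 3 libraries per group, these values cannot exclude a batch shared by replicate number. With the replicate block, and with Cdh22 left out where it was selected, 0 members were called. Cdh22 at 11 to 24 estimated counts in the treated libraries, and Dsg2 at 2 to 14, are limited by depth. With 3 libraries per group, 1 library can shift a value. Without replicate 1 of F0_3NC, the log2 fold change of Cdh22 in F0_5251KD vs F0_3NC moved from -2.00 to -2.41. Without replicate 1 of F0_5NC, that of Ctnna1 in F0_5251OV vs F0_5NC moved from -0.21 to -0.05. Neither was called by edgeR with or without that library.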
